A study of Homo sapiens with 9 samples.

Results

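Aldehyde dehydrogenases are enzymes that turn aldehydes into carboxylic acids with NAD or NADP as the electron acceptor. The genes described here are ALDH1A1, ALDH1A3, ALDH1B1, ALDH2, ALDH3A1, ALDH3A2, ALDH3B1, ALDH7A1 and ALDH9A1, taken as the rows of the expression table that carry these symbols. They are 9 of 27407 features in the table and 9 of the 19 human genes of the family, and the other 10 genes are also in the table. They were selected on their measured levels and on their differences between the hairpins and the control, so those values are a description and no p is printed for them. Threshold calls and intervals given for these genes are part of that description and are not evidence for the selection. RNA was sequenced from Weri-RB1/CRP cells, which the labels give as a retinoblastoma cell line resistant to carboplatin. All 9 libraries come from that line and carry a short hairpin RNA, which is processed into a small RNA that lowers transcripts of matching sequence. The control hairpin is shNC, and shSNHG1#1 and shSNHG1#2 are hairpins against the long noncoding RNA gene SNHG1, with 3 libraries each. No library is labelled as parental, as treated with carboplatin or by a time point.

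The family divides by substrate and by place in the cell. ALDH1A1, ALDH1A2 and ALDH1A3 oxidise retinaldehyde to retinoic acid in the cytosol, and ALDH1A1 is widely used as a marker of stem-like tumour cells and is present in the adult retina. ALDH2 and ALDH1B1 oxidise acetaldehyde in mitochondria. ALDH3A1, an abundant protein of the cornea, ALDH3A2 of the endoplasmic reticulum and ALDH3B1 act on fatty aldehydes and on aldehydes left by lipid peroxidation, while ALDH7A1 and ALDH9A1 work in lysine breakdown and carnitine synthesis.

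The libraries held 21502093 to 21606498 estimated counts each, and the values below are read counts estimated per gene or FPKM, which is the number of fragments scaled by transcript length and by the fragments of the library. The transcript of SNHG1 was not analysed here, which leaves the knockdown unchecked, and groups are as labelled. Whether the 3 libraries of a group are separate cultures is not stated, and so errors and p-values cover the spread between these samples alone, which may be technical. Of 11 photoreceptor and retinoblastoma markers, 8 were below 1 FPKM in every library, with CRX at most 0.03 and RCVRN at most 0.09 FPKM, while GNAT2 stood at 16.0 to 19.6 FPKM. Of 10 epithelial markers 2 were below 1 FPKM in every library (CLDN7 and ESRP1), EPCAM was at 1.56 to 3.56 FPKM and KRT8 at 745 to 790 FPKM. Most defining markers of the labelled cell type were thus near 0 in these libraries. A single feature with no gene symbol took 6.57% to 7.09% of counts in shNC libraries, 12.2% to 13.5% with shSNHG1#1 and 11.8% to 12.1% with shSNHG1#2. Its part in the changes below was not tested, apart from a rescaling of the library totals given later. Some markers of other cell types differed between the groups: CD68, of macrophages and lysosomes, stood at 268 to 286 FPKM in shNC, 83.5 to 90.0 FPKM with shSNHG1#1 and 121 to 124 FPKM with shSNHG1#2, and VIM, of mesenchymal and glial cells, at a mean of 718 FPKM in shNC against 472 and 474 FPKM. COL1A1, of fibroblasts, went the other way, at a mean of 1.25 FPKM in shNC against 2.88 and 2.71 FPKM. Epithelial markers differed both ways. ELF3 had means of 158 FPKM in shNC against 80.1 and 80.7 FPKM, and KRT19 59.8 against 37.1 and 43.4 FPKM. EPCAM had means of 1.69 FPKM in shNC against 3.30 and 3.22 FPKM, and CLDN4 4.07 against 8.35 and 8.13 FPKM. The part of these markers in the results was not tested. In shSNHG1#1 replicate 1, the 9 fibroblast, endothelial and blood markers other than CD68 were each at their highest of the 9 libraries, and summed to 18.0 FPKM against 3.20 to 4.20 FPKM in the others. Without that library, the log2 fold changes of the 9 genes for shSNHG1#1 against shNC ran from -0.45 for ALDH3B1 to 0.82 for ALDH3A1.

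Promoters from RefSeq (assembly GRCh38.p14, 250 bases before to 50 bases after a gene's start) were matched by symbol for 7 of the 9 genes, and ALDH2 and ALDH3A1 had no entry. Those of ALDH1A1, ALDH1A3, ALDH3A2 and ALDH3B1 are shown because these genes differ most in level or direction: the most abundant in shNC, the least abundant, and a pair of fatty aldehyde enzymes that differed from shNC in opposite directions. Capitals mark matches, on either strand, to ACGTG (the core letters bound by hypoxia-inducible factors), GCGTG (those bound by the aryl hydrocarbon receptor) or CCAAT (those bound by nuclear factor Y). Each is written 5′ to 3′ on the strand of its gene. ALDH1A1 lies at chr9:72953004-72953303 (minus strand), ALDH1A3 at chr15:100879581-100879880 (plus strand), the first listed start of ALDH3B1 at chr11:68008297-68008596 (plus strand) and the second listed start of ALDH3A2 at chr17:19648501-19648800 (plus strand).
ALDH1A1: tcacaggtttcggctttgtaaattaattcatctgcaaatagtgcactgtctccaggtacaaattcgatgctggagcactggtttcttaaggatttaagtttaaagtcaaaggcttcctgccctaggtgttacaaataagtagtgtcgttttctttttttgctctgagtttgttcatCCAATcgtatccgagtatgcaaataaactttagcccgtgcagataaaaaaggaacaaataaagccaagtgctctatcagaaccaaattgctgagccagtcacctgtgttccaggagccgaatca
ALDH1A3: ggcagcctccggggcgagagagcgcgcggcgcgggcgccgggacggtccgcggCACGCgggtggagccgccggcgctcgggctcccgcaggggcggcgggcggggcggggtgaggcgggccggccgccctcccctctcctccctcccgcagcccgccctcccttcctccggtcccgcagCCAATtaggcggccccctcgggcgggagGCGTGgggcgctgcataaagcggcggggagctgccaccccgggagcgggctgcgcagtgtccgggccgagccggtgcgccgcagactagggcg
ALDH3B1: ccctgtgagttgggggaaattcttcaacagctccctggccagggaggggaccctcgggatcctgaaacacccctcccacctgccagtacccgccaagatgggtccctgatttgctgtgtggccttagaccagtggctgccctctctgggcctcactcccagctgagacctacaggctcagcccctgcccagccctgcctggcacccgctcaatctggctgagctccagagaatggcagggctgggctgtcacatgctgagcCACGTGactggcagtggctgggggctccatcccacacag
ALDH3A2: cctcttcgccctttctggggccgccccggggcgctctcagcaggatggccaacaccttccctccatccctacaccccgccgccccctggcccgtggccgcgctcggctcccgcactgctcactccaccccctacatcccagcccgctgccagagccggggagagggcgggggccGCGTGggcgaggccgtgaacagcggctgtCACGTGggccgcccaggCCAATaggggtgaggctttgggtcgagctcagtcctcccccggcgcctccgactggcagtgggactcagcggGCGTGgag
The ALDH1A1 window had 40.3% G and C with 1 CCAAT match, 74 bases before the start, and the ALDH1A3 window had 81.7% G and C with 2 GCGTG matches and 1 CCAAT match. The ALDH3A2 window also had 2 GCGTG matches and 1 CCAAT match. In the windows of ALDH3B1 and ALDH3A2 the palindrome CACGTG counts as 2 overlapping matches to ACGTG, 1 on each strand. A gene was counted if any of its windows matched, over 9 windows, with 2 windows for 2 of the genes, ALDH3B1 and ALDH3A2. For both of these genes the window shown is the one with more matches. The other ALDH3B1 window, at chr11:68010077-68010376, had no match to any of the letters searched. The other ALDH3A2 window, at chr17:19647886-19648185, had 1 ACGTG match and no further match. Over the 7 genes, 3 had ACGTG, 2 had GCGTG, 5 had CCAAT and 0 had TGACNNNGC, letters bound by the antioxidant regulator NRF2. Of 35116 windows of the same length in the table, each counted alone, 21.4% held ACGTG, 36.5% GCGTG, 34.6% CCAAT and 13.3% TGACNNNGC. The counts by gene and these shares by window are thus not in the same unit. These matches are letters only, and ACGTG stood both in ALDH3B1, which was lower with the hairpins, and in ALDH1B1 and ALDH3A2, which were higher.

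With either hairpin against SNHG1, 8 of the 9 genes stood higher than in shNC and 1, ALDH3B1, stood lower. ALDH3A1 and ALDH1A1 made up most of the difference: they were already among the most abundant transcripts of the control cells, and their means were higher by 692 to 701 FPKM and by 439 to 532 FPKM. The means of the other 6 genes that stood higher differed from shNC by 20.6 FPKM at most. The libraries of shNC and of each hairpin did not overlap for any of the 9 genes on scaled counts. All 9 passed the filter on low counts, 8 were past an adjusted p of 0.05 as higher and 1 as lower in each comparison (edgeR quasi-likelihood test, Benjamini-Hochberg). Since the genes were chosen with these contrasts in view, nothing is read from that count. Over all 18767 features tested, 48.1% were called with shSNHG1#1, 24.5% as higher and 23.5% as lower, and 46.2% with shSNHG1#2, 23.3% as higher and 22.8% as lower. Libraries did not overlap for 56.3% of features with shSNHG1#1 (29% higher, 27.4% lower) and for 55.8% with shSNHG1#2 (28.3% higher, 27.4% lower). The median log2 fold change of the 9 genes was 0.35 with shSNHG1#1 and 0.38 with shSNHG1#2, against 0.02 and 0.01 over all features tested. Both comparisons use the same 3 shNC libraries, so they are not independent of each other. RNA was measured in bulk, so a change in the number of cells of a type and a change in RNA per cell cannot be told apart.

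**Figure D1:**
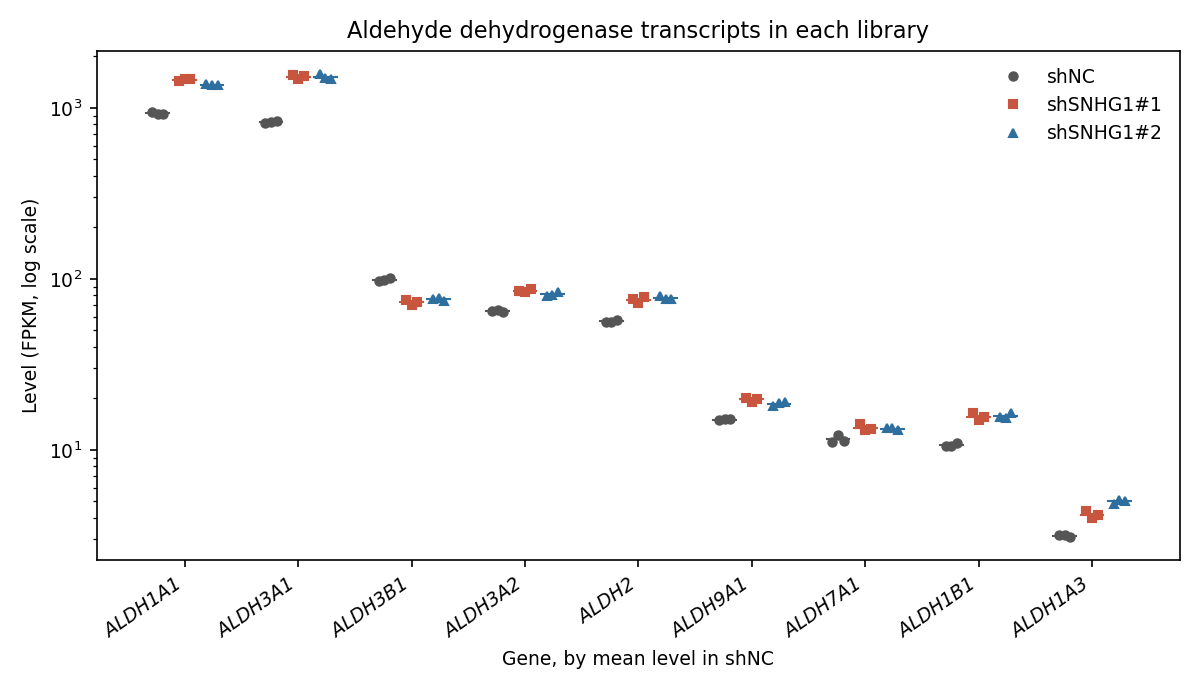
Level of each of the 9 genes in each library, in FPKM on a log axis, with 3 libraries per group as points and group means as short lines. ALDH1A1 and ALDH3A1 stood at 815 FPKM or more in every library, and ALDH3B1 is the 1 gene whose shNC libraries lie above those of both hairpins.

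ALDH1A1, the main cytosolic enzyme of retinaldehyde oxidation, had 944, 919 and 921 FPKM in the shNC libraries. With shSNHG1#1 it had 1431, 1473 and 1476 FPKM, and with shSNHG1#2 it had 1385, 1364 and 1353 FPKM. Every hairpin library was thus above every control library, and those of shSNHG1#2 lay below those of shSNHG1#1. The log2 fold change against shNC was 0.61 (SE 0.02) with shSNHG1#1 and 0.49 (SE 0.02) with shSNHG1#2. By mean FPKM the gene stood at place 40 of 27407 features in shNC, and at places 13 and 14 with the hairpins. Its estimated counts averaged 47450 in shNC libraries, so counting error is small beside the spread between libraries.

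ALDH1A3 makes retinoic acid as well and is known from the developing eye, but it was the least abundant of the 9. It had 3.17, 3.17 and 3.08 FPKM in shNC, 4.37, 4.01 and 4.14 FPKM with shSNHG1#1, and 4.81, 5.12 and 5.05 FPKM with shSNHG1#2. The groups did not overlap, with shSNHG1#2 highest. Against shNC the log2 fold change was 0.35 (SE 0.06) with shSNHG1#1 and 0.60 (SE 0.06) with shSNHG1#2. ALDH1A1 exceeded it 290-fold to 299-fold in FPKM in shNC, 327-fold to 367-fold with shSNHG1#1 and 266-fold to 288-fold with shSNHG1#2. The ratio between these enzymes of 1 reaction was thus higher than in shNC with shSNHG1#1. There the confidence intervals of the log2 fold changes were apart, at 0.55 to 0.66 for ALDH1A1 and 0.21 to 0.49 for ALDH1A3. With shSNHG1#2 the ratios lay lower, but the highest, 288-fold, was close to the lowest in shNC, 290-fold. The intervals with shSNHG1#2 overlapped, at 0.44 to 0.55 for ALDH1A1 and 0.46 to 0.74 for ALDH1A3. The ratio itself was not tested, so a fall with shSNHG1#2 is not established.

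The mitochondrial enzymes ALDH2 and ALDH1B1 were both higher. ALDH2, which clears acetaldehyde formed from ethanol, had 56.0, 56.0 and 57.7 FPKM in shNC, 76.6, 72.5 and 77.8 FPKM with shSNHG1#1, and 79.1, 76.7 and 75.7 FPKM with shSNHG1#2. The control libraries were all lower and the hairpin groups overlapped each other. Its log2 fold change was 0.38 (SE 0.03) with each hairpin. ALDH1B1, its close relative, had 10.6, 10.6 and 11.04 FPKM in shNC, 16.4, 14.9 and 15.6 FPKM with shSNHG1#1, and 15.5, 15.4 and 16.4 FPKM with shSNHG1#2. Again the hairpin groups overlapped each other and not the control. The log2 fold changes were 0.49 (SE 0.04) and 0.48 (SE 0.04).

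The enzymes of fatty and lipid-derived aldehydes did not move as 1 group. ALDH3A1, which removes aldehydes of lipid peroxidation, showed the widest difference of the 9. It had 815, 824 and 833 FPKM in shNC, 1562, 1471 and 1542 FPKM with shSNHG1#1, and 1579, 1497 and 1472 FPKM with shSNHG1#2. Hairpin libraries were all above the controls and overlapped each other. The log2 fold change was 0.84 (SE 0.03) with shSNHG1#1 and 0.82 (SE 0.03) with shSNHG1#2, which is 1.80-fold and 1.77-fold. It went from place 47 of all features in shNC to places 9 and 8.

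ALDH3A2, the fatty aldehyde dehydrogenase whose loss causes Sjögren-Larsson syndrome, had 64.8, 65.3 and 64.0 FPKM in shNC. With shSNHG1#1 it had 85.4, 83.5 and 86.9 FPKM, and with shSNHG1#2 it had 79.4, 80.7 and 83.6 FPKM. The controls were lowest, with log2 fold changes of 0.34 (SE 0.03) and 0.26 (SE 0.03). The hairpin groups just touched in FPKM, although their scaled counts did not overlap. ALDH3A1 was 12.6-fold to 13.0-fold as abundant as ALDH3A2 in shNC and 17.6-fold to 19.9-fold as abundant in the hairpin libraries.

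ALDH3B1, an enzyme found at membranes, went the other way. It had 97.1, 98.8 and 101 FPKM in shNC, 74.7, 70.5 and 73.6 FPKM with shSNHG1#1, and 76.1, 77.2 and 74.7 FPKM with shSNHG1#2. All control libraries lay above all hairpin libraries. The log2 fold change was -0.43 (SE 0.03) with shSNHG1#1 and -0.40 (SE 0.03) with shSNHG1#2. The transcript length implied by its counts and FPKM was 3.72% longer in hairpin libraries than in shNC, beyond the range within shNC of 3336 to 3353 bases, so the drop is slightly larger in FPKM than in counts. Of the other 8 genes, ALDH7A1 had an implied length 2.90% longer and the rest shifted by less than 1%.

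ALDH7A1 and ALDH9A1, of lysine breakdown and carnitine synthesis, were both higher, ALDH7A1 by little. ALDH7A1 had 11.1, 12.2 and 11.3 FPKM in shNC, 14.2, 13.0 and 13.3 FPKM with shSNHG1#1, and 13.4, 13.4 and 13.0 FPKM with shSNHG1#2. On the log2 scale its difference from shNC was the smallest of the 9. The log2 fold change was 0.21 (SE 0.05) with shSNHG1#1 and 0.19 (SE 0.05) with shSNHG1#2, and without shNC replicate 3 it was 0.15 with shSNHG1#2 and missed the threshold. ALDH9A1 had 14.9, 15.1 and 15.1 FPKM in shNC, 20.2, 19.1 and 20.0 FPKM with shSNHG1#1, and 18.0, 18.8 and 19.0 FPKM with shSNHG1#2. Control libraries were lowest and shSNHG1#1 libraries highest, with no overlap. Its log2 fold change was 0.35 (SE 0.03) with shSNHG1#1 and 0.24 (SE 0.04) with shSNHG1#2.

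The sizes of these differences depend on what the libraries are scaled to. In a fit chosen after seeing the data, the 2 most abundant features were left out of the library totals and no TMM factors were applied. TMM factors are the correction for library composition used in the main fit. The median log2 fold change of all features then shifted up by 0.154 with shSNHG1#1 and 0.155 with shSNHG1#2. Library totals alone, also without TMM factors, shifted it by 0.046 and 0.065. All values given below with those 2 features left out of the totals come from that fit without TMM factors. On that scale the 9 genes ran from -0.28 for ALDH3B1 to 1.00 for ALDH3A1 with shSNHG1#1, and from -0.24 to 0.98 with shSNHG1#2, so none changed direction. The share of all calls that were higher moved from 51.0% to 72.1% with shSNHG1#1 and from 50.5% to 73.7% with shSNHG1#2, and library totals alone gave 60.9% with shSNHG1#2.

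In shNC the order of the 9 genes by FPKM was ALDH1A1, ALDH3A1, ALDH3B1, ALDH3A2, ALDH2, ALDH9A1, ALDH7A1, ALDH1B1 and ALDH1A3. No neighbours in that order had overlapping libraries, and the widest step was the 8.33-fold drop from ALDH3A1 to ALDH3B1. With both hairpins ALDH3A1 came first, ALDH3B1 stood in the fifth place behind ALDH3A2 and ALDH2, and ALDH1B1 passed ALDH7A1. The ratio of ALDH3A1 to ALDH1A1 was 0.863, 0.896 and 0.904 in the shNC libraries, 1.09, 0.999 and 1.05 with shSNHG1#1, and 1.14, 1.10 and 1.09 with shSNHG1#2. Levels of the 2 leading genes overlapped in shSNHG1#1 libraries but not in shSNHG1#2 libraries. ALDH2 and ALDH3B1 had overlapping levels with both hairpins, at ratios of 0.994 to 1.06, whereas ALDH2 stood at 0.567 to 0.576 of ALDH3B1 in shNC.

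Summed over the 9 genes, the level was 2012 ± 6.76 FPKM (SD, n = 3) in shNC, 3272 ± 44.9 FPKM with shSNHG1#1 and 3170 ± 71.7 FPKM with shSNHG1#2. That is 1.63 and 1.58 times the control level. ALDH1A1 and ALDH3A1 held 85.5% ± 0.151 of the FPKM of all 19 family genes in shNC, 90.1% ± 0.147 with shSNHG1#1 and 89.7% ± 0.263 with shSNHG1#2. The other 7 genes summed to 261 ± 2.70, 287 ± 8.13 and 287 ± 0.598 FPKM, so most of the added transcript came from the 2 leading genes. In shares of all estimated counts, the 9 genes took 0.445% ± 0.00153 in shNC, 0.702% ± 0.00881 with shSNHG1#1 and 0.679% ± 0.0130 with shSNHG1#2.

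**Figure D2:**
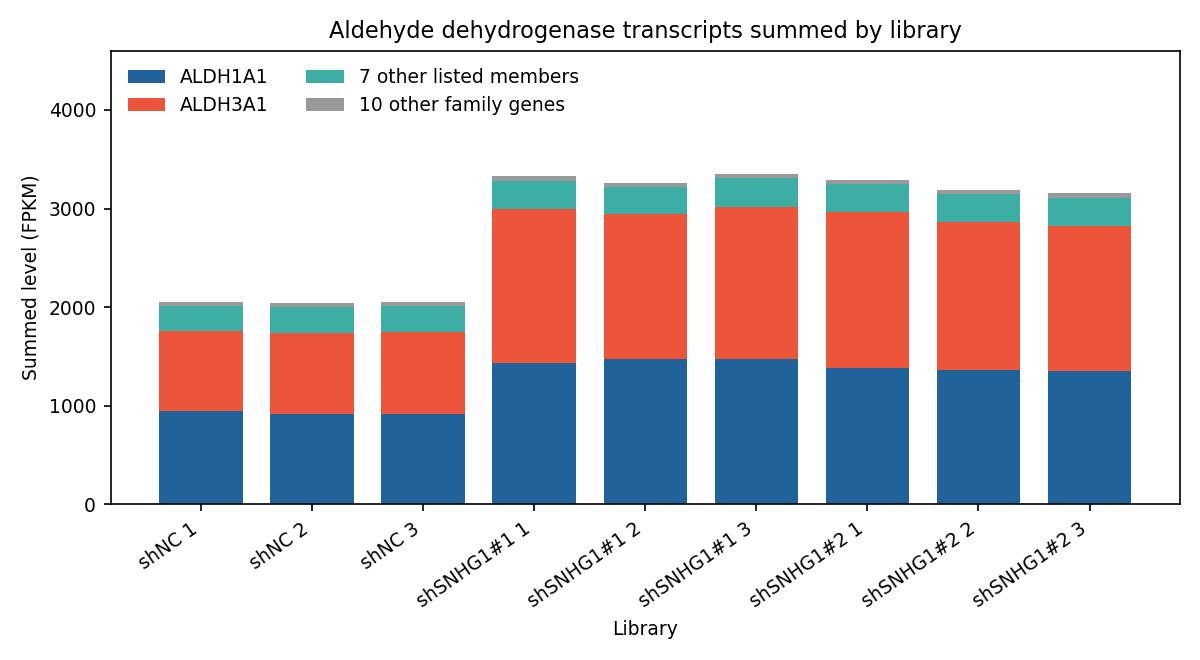
FPKM summed over the aldehyde dehydrogenase genes in each of the 9 libraries, stacked as ALDH1A1, ALDH3A1, the other 7 of the 9 genes and the 10 remaining family genes. The shNC libraries total 2039 to 2054 FPKM and the hairpin libraries 3154 to 3354 FPKM, and the 10 remaining genes form a thin band in each.

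The hairpins differed little from each other. Against shSNHG1#1, the scaled counts of shSNHG1#2 were higher in every library for ALDH1A3, lower in every library for ALDH1A1, ALDH3A2 and ALDH9A1, and overlapped for the other 5 genes. Over all features tested, 20.8% had libraries that did not overlap, 10.7% higher and 10.1% lower. The log2 difference was 0.25 for ALDH1A3 (95% interval 0.11 to 0.39), -0.11 for ALDH1A1 (-0.17 to -0.06), -0.11 for ALDH9A1 (-0.18 to -0.03) and -0.07 for ALDH3A2 (-0.13 to -0.02). For ALDH1B1, ALDH3B1 and ALDH7A1 the values were -0.02 (-0.11 to 0.08), 0.04 (-0.03 to 0.10) and -0.02 (-0.13 to 0.09). For ALDH3A1 it was -0.02, with an interval from -0.10 to 0.05, and for ALDH2 it was 0.00, from -0.07 to 0.07. Among the 9 genes ALDH1A1 alone was past the threshold, as lower, beside 3.12% of all features called and 1.12% called lower, and nothing is read from it. It kept that call in 1 of the 9 fits that each left out 1 library, the fit without shSNHG1#1 replicate 1.

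The other 10 genes make up the rest of the family. Of 8 that passed the filter on low counts, 5 rose and 0 fell with shSNHG1#1, and 6 rose and 1 fell with shSNHG1#2, with medians of 0.62 and 0.50 on the log2 scale. Over all features tested 24.5% and 23.3% rose, 23.5% and 22.8% fell, and the medians were 0.02 and 0.01; the same background holds for the lists that follow. ALDH1A2, ALDH1L2, ALDH4A1, ALDH5A1 and ALDH16A1 rose with both hairpins. All of them were far below the leading genes in level.

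ALDH1L2, the mitochondrial formyltetrahydrofolate dehydrogenase of folate metabolism, rose from 1.33 ± 0.0265 FPKM (SD, n = 3) in the control to 2.51 ± 0.110 FPKM and 2.50 ± 0.131 FPKM with the first and second hairpin. Its log2 fold changes were 0.98 (SE 0.07, edgeR adjusted p = 5.5e-07) and 0.92 (SE 0.07, adjusted p = 1.1e-06). ALDH4A1, which ends proline breakdown in mitochondria, rose from 2.89 ± 0.176 to 4.87 ± 0.284 and 4.49 ± 0.306 FPKM, with log2 fold changes of 0.72 and 0.58 (edgeR adjusted p = 2.6e-05 and 0.00015). ALDH16A1 rose from 4.63 ± 0.533 to 6.83 ± 0.479 and 6.31 ± 0.180 FPKM, by 0.52 and 0.34 on the log2 scale (edgeR adjusted p = 0.00022 and 0.0047). ALDH5A1, which oxidises succinic semialdehyde from the transmitter GABA, rose from 2.63 ± 0.215 to 3.22 ± 0.0600 and 3.59 ± 0.327 FPKM, by 0.37 and 0.41 (edgeR adjusted p = 0.0037 and 0.0018).

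ALDH1A2, the third retinaldehyde dehydrogenase, was almost silent beside ALDH1A1, with 33 counts over the 3 shNC libraries, 79 with shSNHG1#1 and 101 with shSNHG1#2. It rose by 1.2 (SE 0.27, edgeR adjusted p = 0.0037) and 1.54 (SE 0.27, adjusted p = 0.00075) on the log2 scale, from 0.150 ± 0.0794 to 0.330 ± 0.0755 and 0.490 ± 0.121 FPKM. The first of these missed the threshold with limma on FPKM (adjusted p = 0.0518).

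ALDH6A1, of valine and thymine breakdown, rose by 0.21 with shSNHG1#2 at an edgeR adjusted p of 0.044, a call that was lost in 7 of the 9 fits that left out 1 library, and stood at 0.17 with shSNHG1#1 (adjusted p = 0.091), which passed without shSNHG1#1 replicate 3 (0.23). ALDH18A1, which works in the opposite direction to ALDH4A1 by making the precursor of proline, stood at 21.5 ± 0.667 FPKM in shNC, 21.1 ± 1.23 with shSNHG1#1 and 20.6 ± 0.772 with shSNHG1#2. It fell by 0.12 on the log2 scale with shSNHG1#2 (adjusted p = 0.023) and was at -0.09 with shSNHG1#1 (adjusted p = 0.07), which passed when shNC replicate 2, the third library of shSNHG1#1 or the second of shSNHG1#2 was left out. With shSNHG1#1 and shSNHG1#2 its values turned to 0.06 and 0.04 when the 2 most abundant features were left out of the totals, and the call with shSNHG1#2 was lost without shNC replicate 1 and when the first or the third library of shSNHG1#2 was left out. It was also lost with library totals alone (-0.05, adjusted p = 0.316) and with limma on FPKM (-0.06, adjusted p = 0.321). ALDH8A1 was at 0.90 (SE 0.44) and 0.86 (SE 0.44) and passed in neither comparison, with 33, 64 and 63 counts in the 3 groups. Without shSNHG1#1 replicate 1 it was at 1.21 with shSNHG1#1 and passed. ALDH1L1 (3, 15 and 9 counts over a group) and ALDH3B2 (1, 7 and 5 counts) did not pass the filter.

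Between the hairpins 0 of these 8 genes were called by edgeR, 1 had an unadjusted p below 0.05 (ALDH16A1), and DESeq2 and limma called 0.

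**Figure D3:**
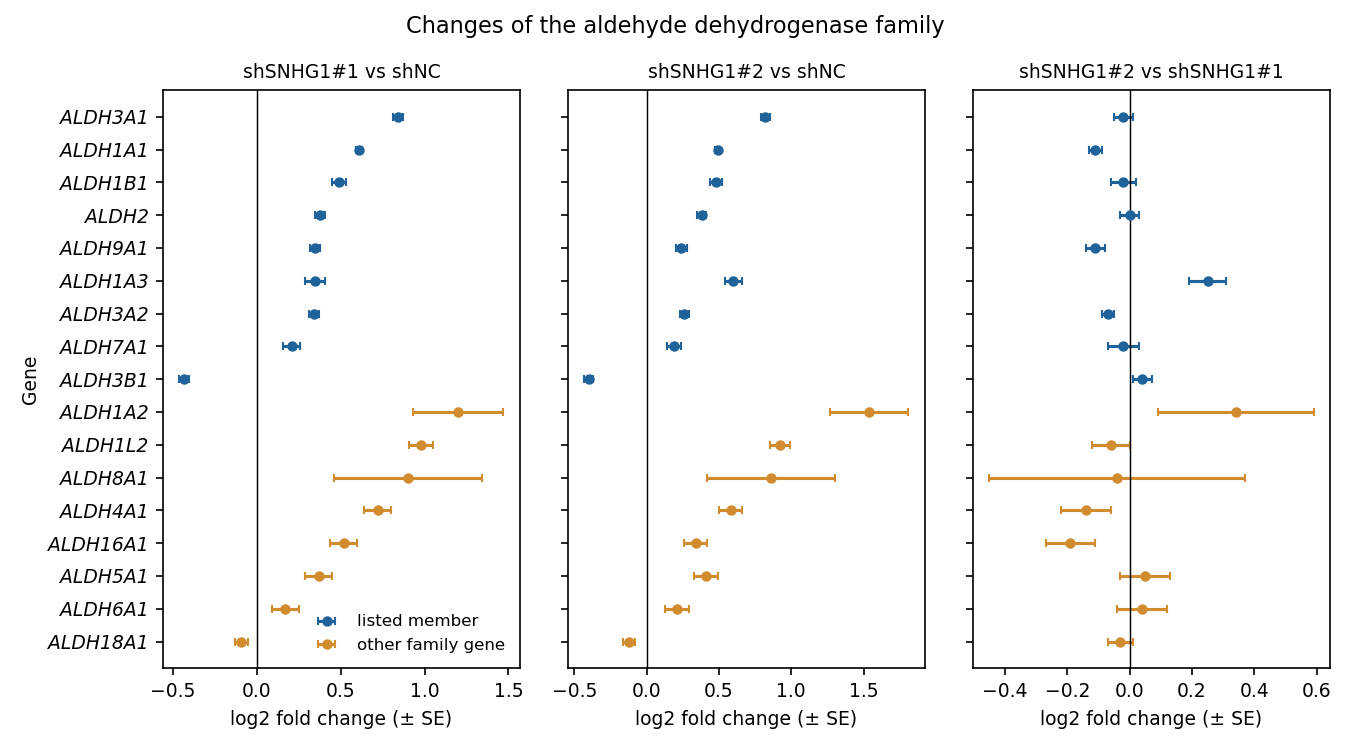
Log2 fold change with its standard error for the 17 tested genes of the family in the 3 comparisons, 9 genes of the list in blue and 8 other family genes in orange, with an axis of its own in each panel. Against shNC most points lie right of 0, with ALDH3B1 and ALDH18A1 left of it, and between hairpins they lie nearer to 0.

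Around the retinaldehyde dehydrogenases, genes that carry retinoids or answer to retinoic acid went both ways. Of 27 tested genes of this list, 6 rose and 11 fell with shSNHG1#1 (median log2 fold change -0.12), and 7 rose and 7 fell with shSNHG1#2 (median 0.05). With the 2 most abundant features left out of the totals the counts were 10 and 8, and 12 and 4, so the balance depends on the scaling. RBP4, which carries retinol, rose from 4.03 ± 0.650 FPKM to 10.3 ± 0.541 and 9.17 ± 1.84 FPKM (log2 fold change 1.29 and 1.10, edgeR adjusted p = 5e-05 and 0.0002). RARA, a retinoic acid receptor, fell from 33.2 ± 1.09 to 18.7 ± 1.44 and 20.0 ± 1.11 FPKM. DHRS3, which returns retinaldehyde to retinol, fell by 0.93 and 0.61 on the log2 scale, and TGM2, a transglutaminase induced by retinoic acid in many cells, fell by 0.84 and 0.67, from 424 ± 5.72 to 245 ± 7.87 and 278 ± 5.39 FPKM. RDH10 and RDH11, named here after their values were seen, make and handle retinaldehyde. RDH10 rose from 29.1 ± 1.41 to 36.1 ± 2.47 and 40.6 ± 2.21 FPKM, and RDH11 from 31.4 ± 0.801 to 45.0 ± 0.924 and 43.3 ± 1.07 FPKM. Between the hairpins 6 genes of the list were higher with shSNHG1#2 and 0 were lower. Over all features tested, 2% were called higher and 1.12% lower in that comparison.

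The list around alcohol oxidation also holds enzymes that act on aldehydes or their conjugates. It has 12 genes, of which 6 were tested; 2 rose and 1 fell with shSNHG1#1, and 3 rose and 1 fell with shSNHG1#2, a total of 4 that was 2 without shNC replicate 1. CAT, the catalase that can oxidise ethanol, rose from 19.5 ± 0.591 to 28.5 ± 0.198 and 27.6 ± 0.494 FPKM, and AKR1A1, an aldehyde reductase that turns aldehydes back into alcohols, rose from 14.8 ± 0.944 to 21.0 ± 1.45 and 19.5 ± 0.542 FPKM. ESD, a hydrolase of the formaldehyde route, fell by 0.27 and 0.21, and the call with shSNHG1#2 was lost without shNC replicate 1, shNC replicate 3 or shSNHG1#2 replicate 3, and both calls when the 2 most abundant features were left out of the totals. The classical alcohol dehydrogenase gene ADH1B had 25 counts in shNC, 179 with shSNHG1#1 and 0 with shSNHG1#2, and reached 3.01 FPKM in a single library, the shSNHG1#1 replicate 1 with raised markers of other cell types.

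The list around amine and polyamine oxidation holds oxidases that form aldehydes, LOX among them, and beside them SAT1. Of 7 tested, 6 rose and 1 fell with shSNHG1#1, and 4 rose and 1 fell with shSNHG1#2, beside 48.1% and 46.2% of all features called. SMOX, the spermine oxidase, rose from 147 ± 2.09 to 218 ± 4.99 and 197 ± 6.25 FPKM, and SAT1, which acetylates polyamines ahead of their oxidation, rose by 0.37 and 0.27 on the log2 scale of counts, from 264 ± 2.51 to 403 ± 11.6 and 374 ± 6.07 FPKM. AOC2, a copper amine oxidase, rose by 0.81 and 0.93. LOX, which oxidises lysines of collagen outside the cell, fell from 8.16 ± 0.248 to 2.18 ± 0.0681 and 4.26 ± 0.0862 FPKM (log2 fold change -1.93 and -0.99, edgeR adjusted p = 1.2e-09 and 1.5e-07).

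The list around fatty aldehydes, the substrates of ALDH3A2, went both ways. It also holds enzymes that do not release an aldehyde themselves. Of 9 tested, 3 rose and 3 fell with shSNHG1#1, and 4 rose and 3 fell with shSNHG1#2, or 5 and 2 with each hairpin when the 2 most abundant features were left out of the totals. TMEM189, the desaturase that makes plasmalogens, fell by 0.72 and 0.71, from 34.4 ± 1.77 to 21.6 ± 0.544 and 22.0 ± 0.504 FPKM. PHYH, of phytanic acid breakdown, rose by 0.42 and 0.32, and CYP4F3, which hydroxylates fatty acids, fell by 0.31 and 0.37. FAR1, which reduces fatty acyl-CoA to fatty alcohols, rose by 0.13 with each hairpin, at an edgeR adjusted p of 0.048 with shSNHG1#1. It lost its call in 7 of the 9 fits that left out 1 library, in each comparison.

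In the lysine, carnitine and betaine routes of ALDH7A1 and ALDH9A1, 6 of 10 tested genes rose and 2 fell with shSNHG1#1, and 6 rose and 1 fell with shSNHG1#2. HYKK, a hydroxylysine kinase, rose by 1.01 and 0.86 on the log2 scale, and CHDH, which oxidises choline to betaine aldehyde, the substrate of ALDH7A1, by 0.71 and 0.76, at a level of 0.827 ± 0.118 FPKM in shNC. GCDH, of lysine breakdown, rose by 0.50 with shSNHG1#1 and by 0.28 with shSNHG1#2 (edgeR adjusted p = 0.0016 and 0.043), and the second call was lost in each of the 9 fits that left out 1 library. PHYKPL, which acts after HYKK, fell by 0.59 and 0.61.

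ALDH3A1 is known as a gene that the aryl hydrocarbon receptor can induce, and several family genes have been placed under NRF2. In that list 7 of 19 tested genes rose and 11 fell with shSNHG1#1 (median log2 fold change -0.33), and 6 rose and 10 fell with shSNHG1#2 (median -0.24). TIPARP, a standard target of the receptor, fell from 71.9 ± 2.29 to 16.1 ± 0.526 and 21.4 ± 0.0520 FPKM (log2 fold change -2.18 and -1.78, edgeR adjusted p = 1.8e-11 and 7.1e-11). GCLC, which starts glutathione synthesis, fell from 150 ± 1.43 to 55.8 ± 1.32 and 58.4 ± 0.384 FPKM. HMOX1, the haem oxygenase gene, fell by 0.89 and 1.07, and NFE2L2, which encodes NRF2 itself, fell by 0.86 and 0.76. Other genes of the list, named after their values were seen, went the other way: GCLM, the partner subunit of GCLC, rose by 0.43 and 0.34 (edgeR adjusted p = 5.5e-06 and 3.5e-05), and ME1, malic enzyme, by 0.36 and 0.28 (edgeR adjusted p = 3.4e-05 and 0.00026). CYP1A1, a standard target of the receptor, was at 0.04 with shSNHG1#1 (edgeR adjusted p = 0.94) and rose by 1.10 with shSNHG1#2 (adjusted p = 0.029), from 0.473 ± 0.231 FPKM in shNC to 1.06 ± 0.132 FPKM, a call lost when shNC replicate 1 (0.73) or the second or the third library of shSNHG1#2 was left out. Also named after their values were seen, CYP1B1 fell by 0.91 and 0.62, from 72.2 ± 1.51 FPKM in shNC, and AHRR fell by 0.53 and 0.24. UGT1A6 rose by 0.61 and 0.84. NQO1 rose by 0.09 with shSNHG1#1 (edgeR adjusted p = 0.021) and stood at 0.06 with shSNHG1#2 (adjusted p = 0.11).

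**Figure D4:**
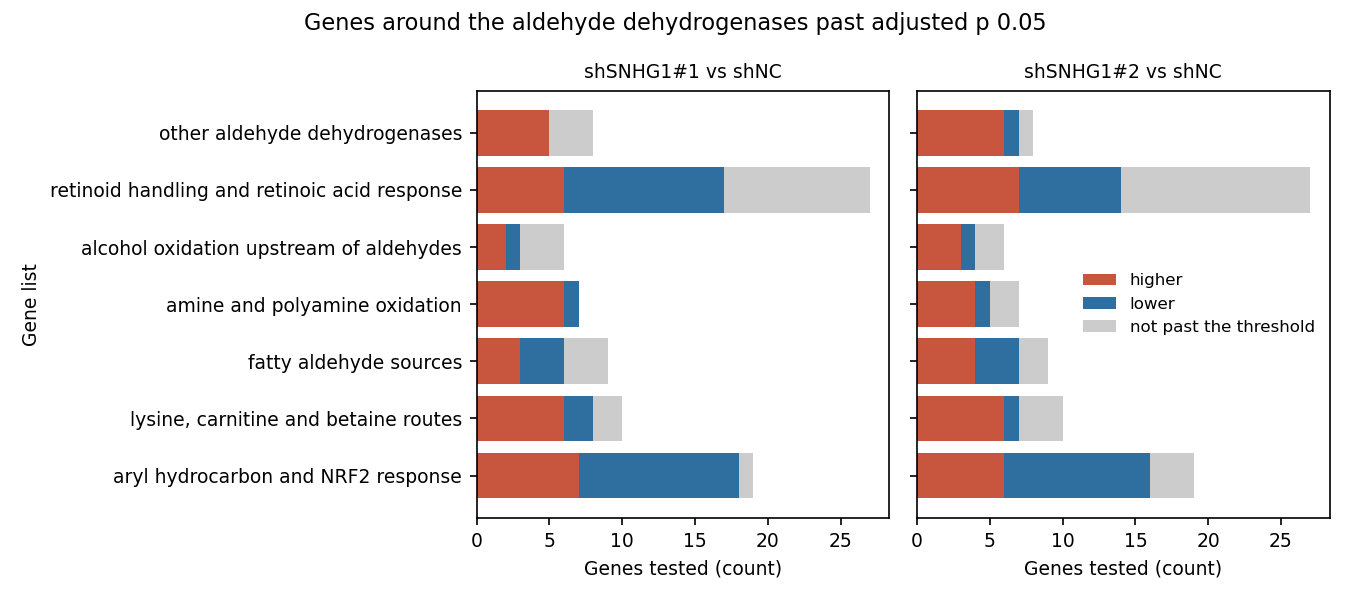
Number of tested genes in each list that were higher, lower or not past an adjusted p of 0.05 against shNC, for shSNHG1#1 (left) and shSNHG1#2 (right). Among the 7 lists, higher genes outnumber lower ones in the other aldehyde dehydrogenases, alcohol oxidation, amine oxidation and lysine routes, and lower genes outnumber higher ones in the aryl hydrocarbon and NRF2 list.

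Next to the genes on their chromosomes, by RefSeq order, neighbours did not all move with them. ANXA1, the neighbour of ALDH1A1 that encodes annexin A1, rose by 0.58 and 0.54 on the log2 scale (edgeR adjusted p = 7.4e-08 and 1.6e-07), close to the values of ALDH1A1, and TMC1 on its other side passed in neither comparison. ALDH1B1 lies between SHB, which fell by 1.09 and 1.00, and IGFBPL1, which rose by 0.97 and 0.92. ALDH3B1 lies between UNC93B1, which fell by 0.56 and 0.47, and NDUFS8, which rose by 0.60 with each hairpin. ALDH3A1 and ALDH3A2 stand on chromosome 17 with SLC47A2 between them, which was at 0.0700 FPKM in shNC and passed in neither comparison. On their outer sides ULK2, next to ALDH3A1, fell by 0.24 and 0.19 (both calls were lost, at -0.08 and -0.04, when the 2 most abundant features were left out of the totals) and SLC47A1, next to ALDH3A2, rose by 0.61 and 0.54. The neighbours of ALDH2 (ACAD10, MAPKAPK5), ALDH7A1 (GRAMD2B, PHAX) and ALDH1A3 (ASB7, LRRK1) passed in neither comparison. Of those of ALDH9A1, TMCO1 passed in neither, and MGST3 rose by 0.28 with shSNHG1#1 (edgeR adjusted p = 0.00018) and was at 0.07 with shSNHG1#2 (adjusted p = 0.21), or 0.22 and past the threshold when the 2 most abundant features were left out of the totals.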

How the data were processed

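The series' table gives, per the file headers, an expression value and a read count per feature and library. The read counts are estimated counts deposited by the authors, shared among transcripts and not whole. The expression values behave as FPKM deposited by the authors, judged from the values, since the header gives no unit. The submitters' processing notes list RSEM 1.2.12, DESeq2 1.4.5, Bowtie2 2.2.5 and HISAT2 2.0.4 without roles. For the genome build, annotation and strand, the sources used here give nothing, so reads of near-identical or overlapping genes cannot be told apart.

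Counts were rounded and tested with edgeR 4.0.16 (R 4.3.3): TMM factors of 0.971 to 1.03, filterByExpr, a quasi-likelihood F test on a model of group fitted to all 9 libraries, and Benjamini-Hochberg adjustment over 18767 features at 0.05. Standard errors come from the F statistic. The scripts were checked on simulated counts. Libraries of a group differed by more than counting noise (chi-square per degree of freedom 3.06 to 6.20). Overlap of libraries was read on log2 CPM with a prior count of 2. The 9 genes and all lists were chosen with earlier results of these data known. All 9 genes and the other 10 family genes are named, and from each further list up to 4 genes past the threshold with both hairpins at a mean log2 CPM of at least 2, those of largest mean change; other names were chosen after their values were seen, or by position. A further rule, to name genes with a like pattern, needed a range of group means of 1 on the log2 scale and none of the 9 reached it (widest 0.84, ALDH3A1). Alternatives were other scalings, no low-count filter, DESeq2 1.42.0, limma 3.58.1 on log2(FPKM + 1), a replicate block, a fit of only the groups compared, and leaving out each library.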

Additional observations from a re-analysis of the deposited data

How the results depend on the processing

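Over 17 alternatives, none of the 9 genes changed direction against shNC. Of 153 values per comparison, 21 moved by more than the spread between replicates with shSNHG1#1 and 25 with shSNHG1#2. The count of genes called between the hairpins, 586, was 974 with DESeq2, 386 with only those groups fitted, and 297 to 534 with 1 library left out (351 without shSNHG1#1 replicate 3, 297 without shSNHG1#2 replicate 2, 349 without shSNHG1#2 replicate 3). The share of those calls that were higher was 64.0%, 74.8% with library totals alone and 76.9% with limma. With 1 library left out it ran from 62.9% (without shSNHG1#1 replicate 2) to 80.8% (without shSNHG1#2 replicate 2). With FPKM rescaled to a common sum, an alternative added after seeing the data, the summed level was 1.67 and 1.64 times that of shNC in place of 1.63 and 1.58. ALDH18A1 turned to 0.06 and 0.04 against shNC without the 2 most abundant features in the totals. With 1 library left out, the values between the hairpins ran from -0.05 to 0.01 for ALDH18A1, from -0.02 to 0.08 for ALDH6A1 and from -0.35 to 0.25 for ALDH8A1, with ALDH8A1 also turning at 0.05 and 0.22, and CYP1A1 ran from -0.33 to 0.31 with shSNHG1#1 against shNC. Between the hairpins the count for the aryl hydrocarbon and NRF2 list, 4, was 7 with DESeq2, and that for amine oxidation, 2, was 1 with only those groups fitted. In the main fit 3.12% of all features tested were called in that comparison. The causes of these shifts were not tested. In fits that left out a library, fewer samples and the loss of that library's own values cannot be told apart. Same-numbered libraries did not deviate together (correlations -0.0361 to 0.0322, 4 of 9 libraries closest to their own number). With a replicate block 8752, 8421 and 433 genes were called in place of 9023, 8669 and 586. For the other aldehyde dehydrogenases the block gave 5, 6 and 0 calls. Genes with few counts, such as ALDH1A2 and ALDH8A1, are limited by depth.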
